A study of Mus musculus with 26 samples.

Results

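The RNA of NIH3T3 cells exposed to H2O2 for 2 h was compared, gene by gene, with that of their control cells. NIH3T3 is an established line of mouse embryonic fibroblasts, and H2O2 was used as an oxidative stress. The 4 libraries compared, 2 from stressed cells and 2 from control cells, were chosen by their labels and belong to a series of 26. Each group was NIH3T3 with no altered gene or added allele named: the control is labelled as shared between H2O2 and KCl, and the H2O2 group as oxidative stress for 2 h. The dose of H2O2 and the handling of the control cells are not stated there. RNA was selected for polyA tails. Of 20430 gene symbols in the table, 13256 had enough counts over the experiment's 10 RNA libraries to be tested. Those 10 also include H2O2 for 7 h and KCl, an osmotic stress, for 2 h and 7 h, and all of them shared an estimate of the spread. Nothing in the labels says that the 2 replicates of a group came from separate cultures, so the p-values below measure the spread between these libraries, which may be technical. The cells are 1 line grown in culture, which limits what they stand for.

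H2O2 is a small oxidant that crosses membranes and oxidises reactive cysteines. A cell removes it with catalase, glutathione peroxidases and peroxiredoxins. The glutathione peroxidases and peroxiredoxins, but not catalase, draw their electrons from glutathione and thioredoxin and so from NADPH. Oxidation of the sensor KEAP1 frees the transcription factor NRF2, which raises antioxidant genes through antioxidant response elements. Peroxide is also known to activate MAP kinases, which switch on immediate early genes, the kinases of the integrated stress response, which favour translation of the transcription factor ATF4, and the tumour suppressor p53.

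The control libraries held 45244430 and 35775040 counts and the H2O2 libraries 30541457 and 33106958. Within the groups of the experiment the log2 levels of replicates correlated across genes at 0.994 to 0.996, and replicates differed by more than sampling noise, so none is a copy. The label as fibroblasts was borne by the markers: Col1a1, the main chain of type I collagen, stood at 5534 and 5921 per-million counts (CPM) in the control libraries and at 5062 and 5198 after H2O2, and Vim, the intermediate filament vimentin, at 2801 and 2797 and 2456 and 2355. All CPM values below are per-million counts after TMM normalization, given in replicate order. A gene is called when its adjusted p in edgeR's quasi-likelihood test is under 0.05, and fold changes are log2 values, H2O2 against control, with the standard error (SE) of the fit.

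After 2 h of H2O2, 53.9% of the 13256 genes were called, 3624 (27.3%) higher and 3516 (26.5%) lower, and the median gene did not move (log2 -0.0009). Most of these changes were small. At least a 2-fold rise was called in 1456 genes (11.0%) and at least a 2-fold fall in 307 (2.32%). On the log2(TPM + 1) scale limma called 625 genes at least 2-fold higher and 170 lower. The edgeR shares are the background for every list below. Among the 11091 genes with a control mean of at least 1 CPM, 428 (3.86%) rose at least 2-fold and 274 (2.47%) fell that far. Of the 2165 genes under 1 CPM, 1028 (47.5%) rose and 33 (1.52%) fell by that much. A gene that is nearly silent in control cells could enter the test only through stressed libraries in which it was higher, so nothing is read from the count under 1 CPM.

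**Figure D1:**
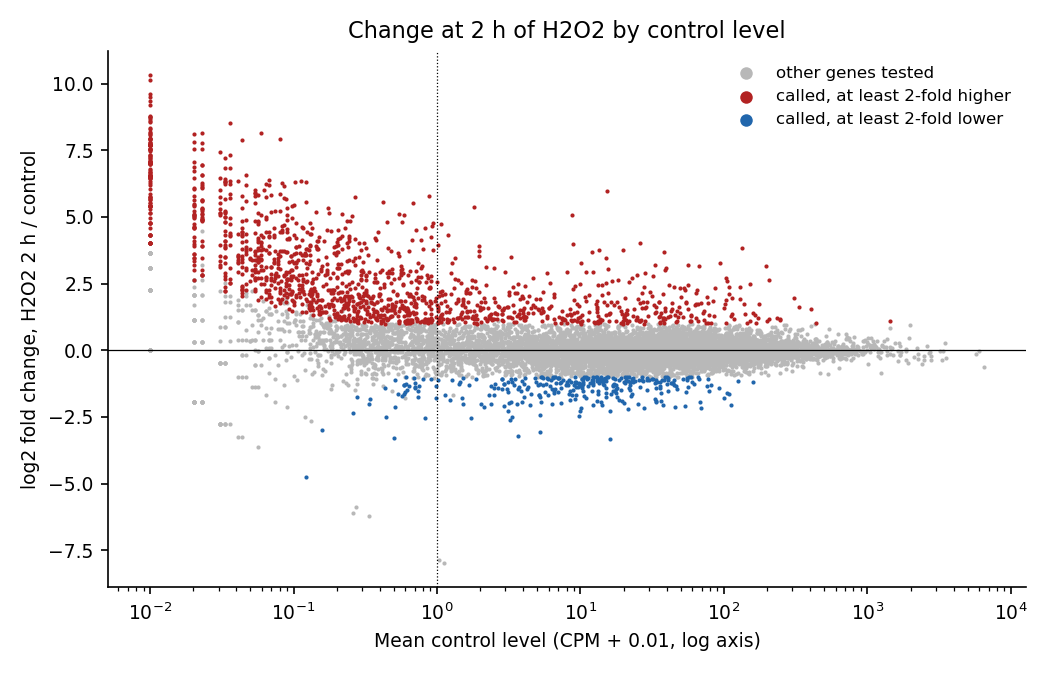
Log2 fold change at 2 h of H2O2 (vertical axis) against the mean control level in CPM (horizontal log axis, with 0.01 added) for the 13256 genes tested, each point a gene, red where called higher by at least 2-fold and blue where called lower by at least 2-fold. Rises of that size are most common on the left side, where the filter on low counts admits genes mostly through libraries in which they are higher, while falls of that size sit mostly between 1 and 100 CPM.

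Genes that changed by at least 2-fold were short. Over genes with a control mean of at least 1 CPM, the median length of the gene on the chromosome, introns included, was 16.1 kb for those at least 2-fold higher (419 with a RefSeq length) and 12.2 kb for those at least 2-fold lower (267), against 27.4 kb for the 4933 that were not called. At the same level, 15 of 68 long noncoding RNAs (22.1%) rose at least 2-fold and 3 fell as far, compared with 3.76% of 10697 protein-coding genes that rose and 2.47% that fell.

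The 8 largest rises and the 8 largest falls were taken from called genes whose average log2 CPM was 3 or more and whose H2O2 and control libraries did not overlap. Such separation is common here: the libraries of the groups did not overlap in 78.1% of all genes tested. The average log2 CPM includes the stressed libraries. Fosb, Areg and Pygm, low in the control, could reach 3 only through stressed libraries in which they were higher. Their places among the 8 rises are therefore not read as a result. The strongest rise was that of Lif, a cytokine of the interleukin 6 family. It stood at 13.3 and 17.4 CPM in the control libraries and at 985 and 953 CPM after H2O2, a log2 change of 5.98 ± 0.14 (adjusted p = 1.76e-12). Both H2O2 libraries lay far above either control library. Fosb, a partner in the AP-1 transcription factor, went from 1.41 and 2.20 CPM to 66.6 and 80.1 CPM (log2 5.37 ± 0.16, adjusted p = 6.57e-12). Atf3, a stress-induced transcription factor of the ATF/CREB family, went from 8.67 and 8.65 CPM to 287 and 289.6 CPM (log2 5.06 ± 0.09, adjusted p = 3.39e-13). Areg, the epidermal growth factor receptor ligand amphiregulin, and Tnfaip3, the ubiquitin-editing enzyme A20 that restrains NF-kB signalling, rose by log2 4.32 and 4.04. In none of these genes did a stressed library come near a control library.

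Among the same 8, Pygm, the muscle glycogen phosphorylase, rose from 0.331 and 0.734 CPM to 17.0 and 18.1 CPM (log2 5.09 ± 0.19). It is known from muscle rather than from fibroblasts. Tent4b was the least certain of the 8. It stood at 0 and 2.12 CPM in the control and at 16.8 and 33.5 CPM after H2O2, but the table also lists Papd5, another symbol of that gene, and with the counts of both summed it stood at 60.0 and 61.8 CPM against 75.3 and 79.2 CPM, a log2 change of 0.34 ± 0.07 (adjusted p = 0.000508). The reads of this gene could have been divided between the names. DESeq2 did not call it as deposited (log2 4.57, adjusted p = 0.0928).

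The 8 largest falls were led by Bmf, a pro-apoptotic member of the BCL2 family, which went from 15.8 and 16.3 CPM to 1.90 and 1.27 CPM (log2 -3.34 ± 0.17, adjusted p = 1.14e-09). Txnip, which binds and inhibits thioredoxin and also limits glucose uptake, fell from 23.4 and 19.6 CPM to 4.60 and 4.64 CPM (log2 -2.22 ± 0.11, adjusted p = 9.19e-10). The developmental transcription factors Hoxa9 and Hoxa10 fell by log2 2.27 and 2.13: Hoxa9 from 16.7 and 15.5 to 3.17 and 3.49 CPM, and Hoxa10 from 44.3 and 47.5 to 10.2 and 10.7 CPM. Zfp503, a zinc finger repressor, fell from 65.4 and 73.3 to 15.2 and 15.6 CPM. Skida1, Dnm3os (a noncoding RNA opposite the Dnm3 gene) and the histone gene Hist1h2ap completed the group, with log2 changes of -2.17, -2.15 and -2.08. All 16 genes were also separated in every library of the comparison by the rule that chose them.

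**Figure D2:**
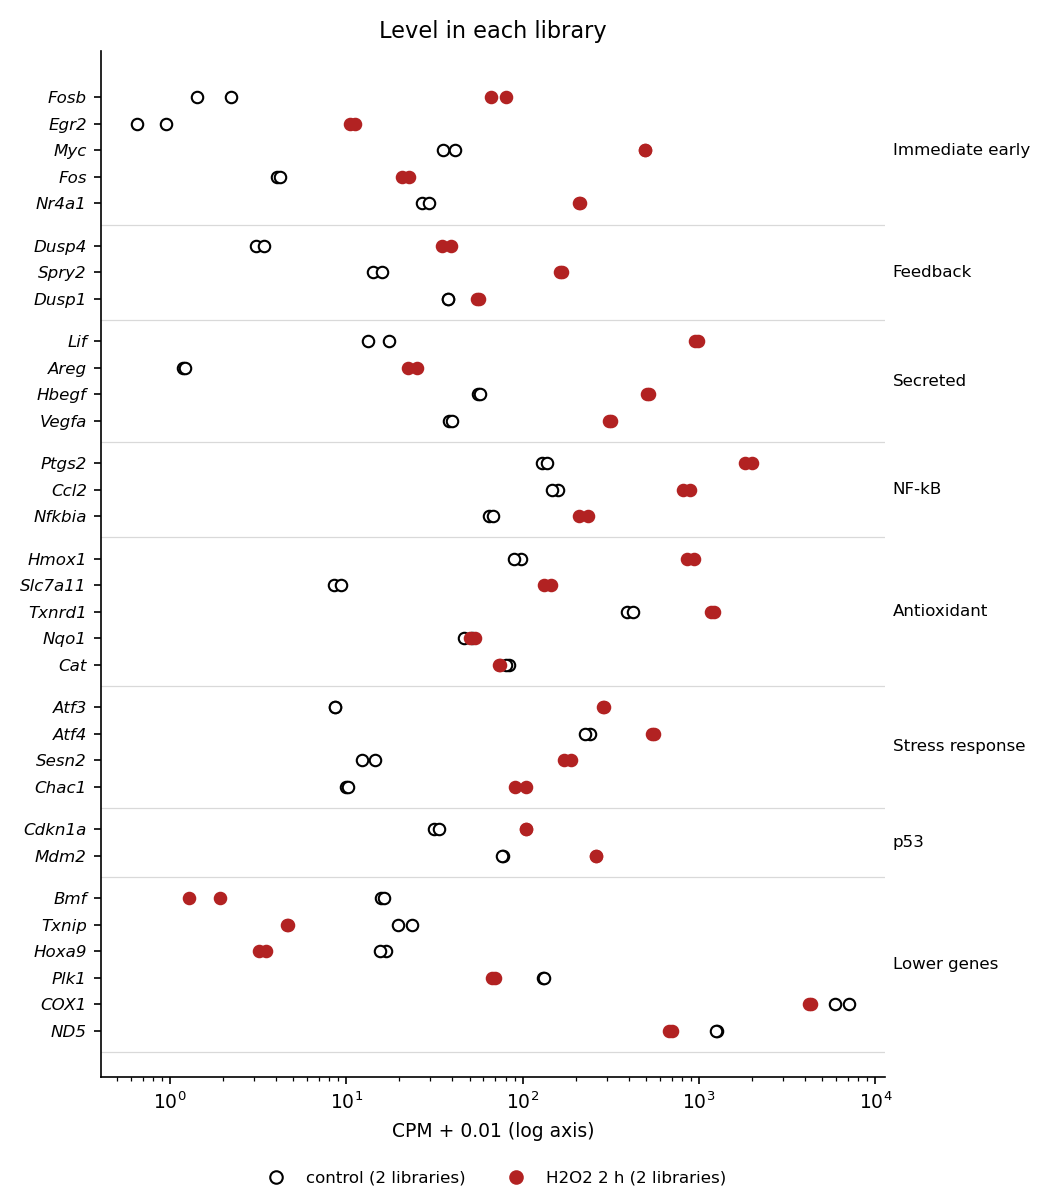
CPM after TMM normalization (log axis, with 0.01 added) in each of the 2 control libraries (open circles) and the 2 H2O2 libraries (filled circles) for 32 genes named in the text, grouped by role. The pairs of replicates lie close together, and the H2O2 pair of Lif sits at 953 to 985 CPM while its control pair is under 18 CPM.

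Immediate early genes, which MAP kinases and calcium switch on without new protein synthesis, were nearly all higher. Of 26 tested members, 23 were called higher and 2 lower, with 22 at least 2-fold higher, and the median log2 change was 2.31 against -0.0009 over all genes. After Fosb, the largest rises were those of Egr2, a zinc finger factor (0.641 and 0.943 to 10.5 and 11.2 CPM, log2 3.80), and Myc (35.2 and 41.5 to 492 and 494 CPM, log2 3.69). Myc, which drives growth and ribosome synthesis, was one of the more abundant members, and its H2O2 libraries were close to each other. The AP-1 subunits were not equal: Fosl1, Fos, Junb and Jun rose by log2 2.79, 2.40, 2.39 and 1.90, while Jund was not called (log2 0.06, adjusted p = 0.557). The nuclear receptor Nr4a1 rose from 27.0 and 29.3 to 210.0 and 211 CPM, and Zfp36, whose protein speeds the decay of cytokine mRNAs, from 15.1 and 15.2 to 81.4 and 94.2 CPM. The members called lower were Klf2, a factor of quiescent cells (log2 -1.31), and Ier5l (log2 -1.32).

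Genes that feed back on this signalling rose with it. The list of dual specificity phosphatases, which remove phosphate from MAP kinases, and of the Sprouty and Spred inhibitors of growth factor signalling had 11 of 13 members called higher and 1 lower, with a median log2 change of 2.60. Dusp4 went from 3.08 and 3.41 to 34.8 and 39.02 CPM, Spry2 from 14.2 and 16.0 to 167 and 164 CPM and Dusp8 from 12.1 and 12.4 to 88.1 and 101 CPM. Dusp2 had the largest fitted change (log2 5.21 ± 0.40) at the lowest level, from 0.0620 and 0.0786 to 2.32 and 3.10 CPM. Being nearly silent in the control, it could pass the filter only through stressed libraries in which it was higher. Its call and its rank are therefore not read as a result. Dusp1, often the first of the family to be induced, differed less at this time (37.6 and 37.6 to 54.9 and 56.9 CPM, log2 0.57). Dusp7 was the member called lower (log2 -0.87).

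Among secreted growth factors and cytokines, 22 of 29 symbols were called higher, 19 of them at least 2-fold, and Tgfb1 alone was called lower (log2 -0.22), a call lost without control replicate 1 (log2 -0.25), control replicate 2 (log2 -0.19) or H2O2 replicate 2 (log2 -0.17). Beside Areg, 2 more ligands of the epidermal growth factor receptor rose: Ereg went from 32.4 and 33.6 to 314 and 292 CPM and Hbegf from 55.7 and 57.0 to 524 and 507 CPM. The matricellular genes Ctgf and Cyr61, classical targets of YAP and SRF, rose from 61.6 and 72.4 to 580.4 and 629 CPM and from 199 and 216 to 1282 and 1291 CPM. Vegfa, the main angiogenic factor, reached 307 and 316 CPM from 38.4 and 39.6 CPM. Il11, a relative of Lif, rose by log2 2.82 at a low level (0.745 and 0.498 to 3.96 and 4.996 CPM). The table lists Wisp1 under its second symbol Ccn4 as well, and with both summed it stood at 202 and 195 CPM against 284 and 269 CPM. Fgf2, Tgfa and Pdgfa did not pass the test (log2 0.51, 0.68 and -0.07).

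The NF-kB list, made of chemokines, inflammatory genes and the pathway's own inhibitors, had 24 of 28 members called higher and 2 lower, with 16 at least 2-fold higher and a median log2 change of 1.14. The chemokines Ccl20 and Cxcl2 had the largest changes but low levels: Ccl20 went from 0.745 and 0.603 to 31.4 and 31.3 CPM and Cxcl2 from 0.0827 and 0.183 to 4.31 and 5.17 CPM. Cxcl2, nearly silent in the control, could pass the filter only through stressed libraries in which it was higher. Ptgs2, the inducible cyclooxygenase, was far more abundant and rose from 129 and 137 to 1827 and 1986 CPM (log2 3.84 ± 0.13). Ccl2, a monocyte chemokine, rose from 159 and 147 to 895 and 816 CPM, and Nfkbia, the inhibitor IkB alpha, from 64.1 and 68.2 to 209 and 234 CPM. The subunits Nfkb1, Relb and Rela were called higher by less (log2 0.84, 0.80 and 0.43). Cxcl12, a chemokine of resting fibroblasts, and Bcl3 were called lower (log2 -0.81 and -0.86).

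Promoter sequence was read for the genes that have one in the RefSeq table (GRCm38.p6, the same assembly as mm10, which the submitters' processing notes name). Windows of 250 bases upstream of annotated starts were available for 10236 of the 13256 genes tested, 13078 windows in all, and motifs were searched on both strands. The NF-kB motif, GGGA and any base followed by TTTCC, was in 6 of 25 windows of the NF-kB list (24.0%), each of another gene, against 0.382% of all windows. The CArG box, the site of SRF, was in 6 of 23 windows of the immediate early list (26.1%), from 3 genes, against 1.21% of all. The AP-1 motif TGACTCA was in 8.01% of the 437 windows of genes at least 2-fold higher with a control mean of at least 1 CPM, against 3.16% of the 11155 windows of all genes at that level and 0.719% of the 278 windows of genes at least 2-fold lower. For the cAMP response element TGACGTCA the shares were 5.95%, 2.66% and 3.96%. In the growth factor and cytokine list that element was in 1 of 29 windows (3.45%), near the 2.43% of all windows. A match describes the letters in a window, not binding. The windows of the list members with the largest rise and a match to the NF-kB motif (Cxcl2), the CArG box (Egr2) and the cAMP response element (Areg) are printed in the direction of transcription, with the motif in capitals. The motif begins 97 bases before the annotated start in Cxcl2 (chr5:90903649-90903898, mm10, plus strand), 72 bases before it in Egr2 (chr10:67537316-67537565, mm10, plus strand) and 61 bases before it in Areg (chr5:91139349-91139598, mm10, plus strand).
Cxcl2: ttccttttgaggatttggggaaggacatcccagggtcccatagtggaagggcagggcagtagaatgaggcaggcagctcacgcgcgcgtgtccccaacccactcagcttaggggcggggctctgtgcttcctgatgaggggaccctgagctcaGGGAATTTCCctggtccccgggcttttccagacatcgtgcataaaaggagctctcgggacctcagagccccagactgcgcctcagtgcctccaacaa
Egr2: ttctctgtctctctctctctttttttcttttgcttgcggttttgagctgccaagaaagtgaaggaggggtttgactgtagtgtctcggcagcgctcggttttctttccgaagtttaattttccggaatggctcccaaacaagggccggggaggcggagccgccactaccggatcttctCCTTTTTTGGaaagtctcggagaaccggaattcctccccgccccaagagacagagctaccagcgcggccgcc
Areg: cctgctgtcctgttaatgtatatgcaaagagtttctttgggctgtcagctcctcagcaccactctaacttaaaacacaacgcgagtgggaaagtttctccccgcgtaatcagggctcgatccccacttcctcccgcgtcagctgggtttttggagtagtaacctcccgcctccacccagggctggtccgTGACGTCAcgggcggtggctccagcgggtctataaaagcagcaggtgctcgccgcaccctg

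**Figure D3:**
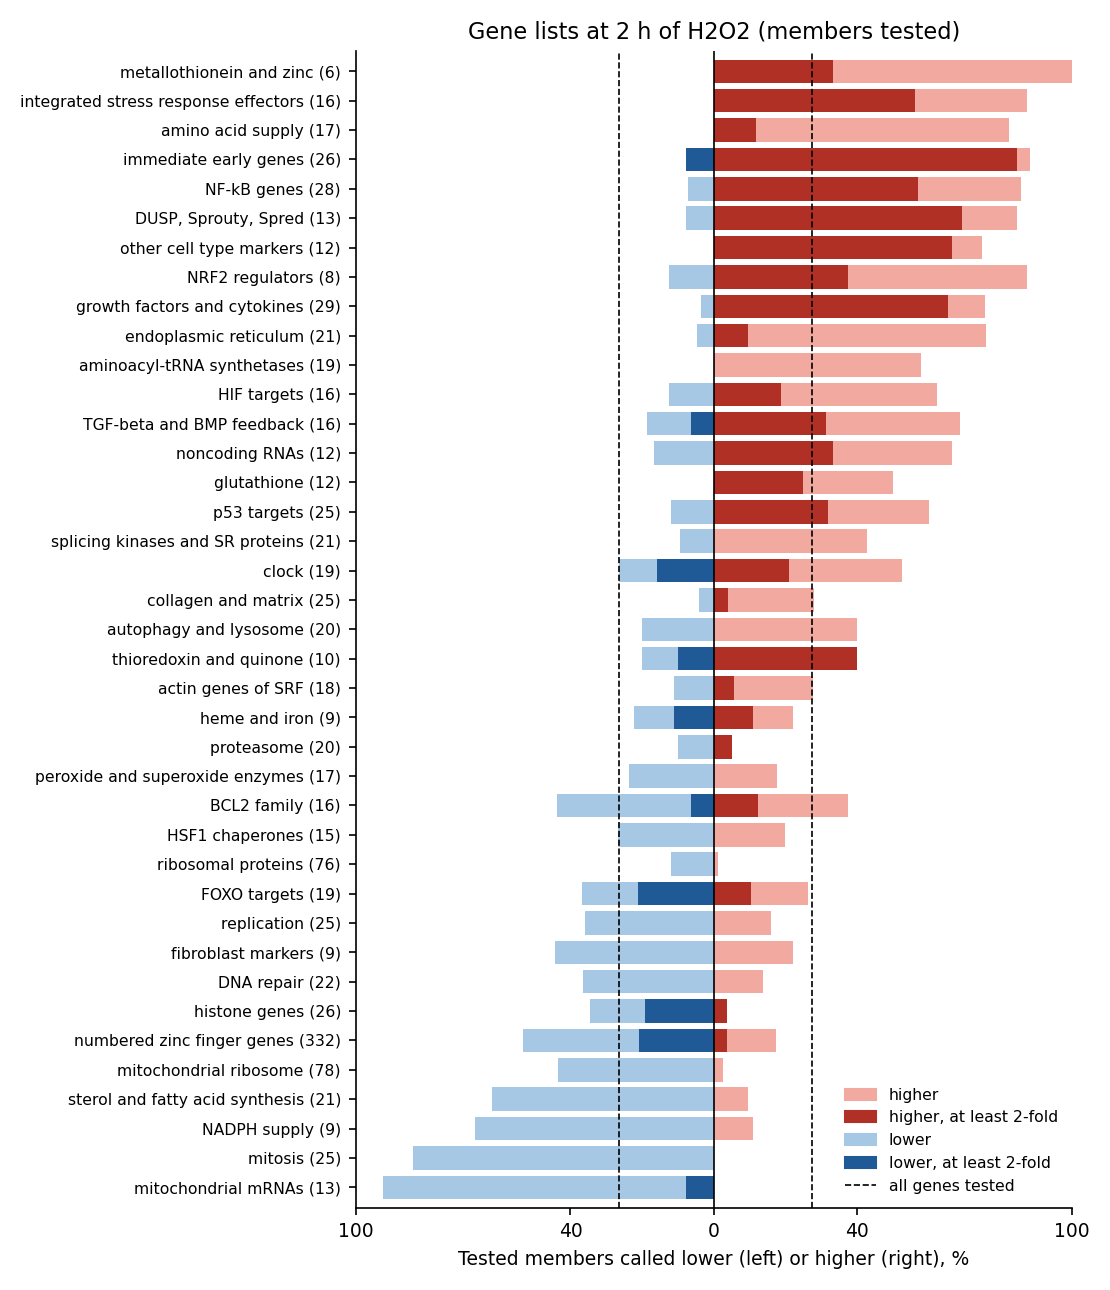
Share of tested members called higher (red, to the right) and lower (blue, to the left) at 2 h of H2O2 for 39 gene lists, with darker segments for changes of at least 2-fold and dashed lines at the background shares of 27.3% and 26.5%. Metallothionein and zinc genes, immediate early genes, integrated stress response effectors, regulators of NRF2 and NF-kB genes extend furthest to the right, and mitosis genes and mitochondrial mRNAs furthest to the left.

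The antioxidant genes did not move as a group: some of the best known NRF2 targets rose several-fold while others of the same lists stayed within the spread. In the heme and iron list 2 of 9 members were called higher and 2 lower. Hmox1, which breaks down heme, rose most, from 98.4 and 88.9 CPM to 943 and 857 CPM (log2 3.26 ± 0.09, adjusted p = 4.35e-12). In the glutathione list 6 of 12 members were called higher and none lower. Its largest rise was in Slc7a11, which imports cystine, from 8.50 and 9.30 to 132 and 146 CPM (log2 3.97 ± 0.12), followed by its partner chain Slc3a2 (181 and 170.2 to 601 and 560.2 CPM). Gclc, the catalytic subunit of the enzyme that limits glutathione synthesis, rose from 39.5 and 38.7 to 89.8 and 85.9 CPM, while its modifier Gclm rose by log2 0.29, a call lost without H2O2 replicate 1 (log2 0.17). Gsr and Gss, which reduce glutathione and complete its synthesis, were not called (log2 -0.02 and -0.04).

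In the thioredoxin and quinone list 4 of 10 members were called higher and 2 lower. Srxn1, which repairs overoxidised peroxiredoxins, rose from 64.4 and 61.3 to 218 and 193 CPM (log2 1.71 ± 0.07), and Txnrd1, the cytosolic thioredoxin reductase, from 392 and 423 to 1222 and 1163 CPM (log2 1.55 ± 0.06). The quinone reductase Nqo1, a standard NRF2 marker, was not called at this time (51.4 and 46.7 CPM against 53.5 and 49.99 CPM, log2 0.08 ± 0.08, adjusted p = 0.469). Txn1, thioredoxin itself, was called lower by a little (log2 -0.20, a call lost without control replicate 1 at log2 -0.21 or control replicate 2 at log2 -0.20), next to the large fall of its inhibitor Txnip. The enzymes that consume peroxide and superoxide were nearly level: 3 of 17 were called higher, 4 lower and none by 2-fold, with catalase (Cat) at 83.8 and 80.1 CPM against 73.4 and 74.8 CPM. Of 9 enzymes that supply NADPH, 6 were called lower and Pgd alone higher (log2 0.23, a call lost without H2O2 replicate 1 at log2 0.16). Idh1 fell most (log2 -0.52).

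Regulators of these genes changed more evenly. Of 8 tested, 7 were called higher, among them Nfe2l2, which encodes NRF2 (149 and 136 to 252 and 239.5 CPM), its small MAF partners Maff and Mafk (log2 2.57 and 2.36) and the competing repressor Bach1 (log2 0.59). Keap1, whose protein holds NRF2 for degradation, was called lower (log2 -0.38). In the promoter windows of the glutathione and thioredoxin lists together, the antioxidant response element core TGACNNNGC was in 7 of 23 windows (30.4%), from 6 genes, against 11.6% of all windows. An AP-1 motif followed by GC fits it too, so the counts of these motifs overlap. The core was also in 26.1% of immediate early windows and 18.9% of windows of the integrated stress response lists. In the growth factor and cytokine list it was in 4 of 29 windows (13.8%) and in the NF-kB list in 3 of 25. With a control mean of at least 1 CPM, genes at least 2-fold higher had it in 61 of 437 windows, against 1314 of 11155 for all. A share above that of all windows was thus not particular to the antioxidant lists, and differences between lists were not tested. Of the genes in the glutathione and thioredoxin lists, Txnrd1 had the largest rise with a match. Its window is shown with the core, read on the opposite strand, in capitals 92 bases before the start (chr10:82858956-82859205, mm10, plus strand).
Txnrd1: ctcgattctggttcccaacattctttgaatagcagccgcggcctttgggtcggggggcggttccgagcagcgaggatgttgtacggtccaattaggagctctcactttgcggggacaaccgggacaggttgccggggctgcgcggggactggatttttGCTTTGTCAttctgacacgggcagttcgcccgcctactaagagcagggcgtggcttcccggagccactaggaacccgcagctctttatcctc

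Effectors of the integrated stress response were higher with few exceptions. Of 16 effectors tested, 14 were called higher, none lower and 9 at least 2-fold higher, with a median log2 change of 1.24. Atf4 mRNA itself, whose protein level is known to be set mainly at translation, rose from 242 and 227 to 555 and 538 CPM (log2 1.22 ± 0.06). Below it, Sesn2, which restrains mTORC1, went from 12.2 and 14.5 to 188 and 173 CPM, Chac1, which degrades glutathione, from 9.93 and 10.2 to 104 and 91.0 CPM, and Trib3, a pseudokinase that curbs ATF4, from 9.74 and 10.1 to 60.5 and 50.5 CPM. Ppp1r15a (GADD34), which recruits the phosphatase that ends the response, rose from 23.9 and 25.7 to 173 and 173 CPM. Ddit3, encoding CHOP, rose from 19.6 and 19.6 to 54.9 and 46.9 CPM. Jdp2 was not called (log2 0.17).

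Genes of amino acid supply rose by less. Of 17 tested, 14 were called higher and none lower (median log2 0.71), led by the arginine and lysine transporter Slc7a1 (139 and 139 to 445 and 471 CPM). Asns, asparagine synthetase, went from 81.9 and 75.2 to 135 and 138 CPM, and the serine synthesis gene Phgdh was not called (log2 -0.04). Of 19 aminoacyl-tRNA synthetases, 11 were called higher and none lower, with Tars and Nars at the top (log2 0.76 and 0.75). The ATF4 composite element TGATGNAA was in 8 of 37 windows of the effector and amino acid lists (21.6%), each of another gene, against 2.00% of all windows. Atf3, the effector with the largest rise, has a match on the opposite strand 110 bases before its start (chr1:191183334-191183583, mm10, minus strand). Slc7a11, of the glutathione list, has a pair, 66 and 47 bases before its start (chr3:50443614-50443863, mm10, minus strand).
Atf3: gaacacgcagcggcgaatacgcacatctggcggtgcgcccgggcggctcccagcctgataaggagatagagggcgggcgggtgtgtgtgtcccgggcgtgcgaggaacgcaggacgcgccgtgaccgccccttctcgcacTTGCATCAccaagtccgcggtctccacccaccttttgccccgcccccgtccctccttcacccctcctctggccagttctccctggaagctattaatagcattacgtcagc
Slc7a11: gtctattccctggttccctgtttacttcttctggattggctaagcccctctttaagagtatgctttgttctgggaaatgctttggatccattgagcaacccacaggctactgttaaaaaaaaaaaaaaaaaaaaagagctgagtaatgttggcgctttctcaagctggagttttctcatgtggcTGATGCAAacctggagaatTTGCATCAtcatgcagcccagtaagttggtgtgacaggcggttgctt

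Other protein quality lists differed. Cytosolic chaperones of the HSF1 regulon, the heat shock response, stayed near their control level: 3 of 15 were called higher and 4 lower, none by 2-fold, and the median log2 change was -0.03. Hspa1b, an inducible HSP70 gene, was called lower (84.3 and 94.0 CPM to 74.2 and 52.5 CPM, log2 -0.49 ± 0.12). Its near-identical neighbour Hspa1a stood at 27.4 and 29.1 CPM and 31.3 and 14.5 CPM (log2 -0.31, adjusted p = 0.256), and reads of such copies may be divided between them. It was called lower without H2O2 replicate 1 (log2 -1.03, adjusted p = 7.68e-06) and without the filter on low counts (log2 -0.33). In the endoplasmic reticulum list 16 of 21 members were called higher and 1 lower, but only Dnajb9 and Herpud1 by 2-fold (log2 2.07 and 1.23), and the chaperone BiP (Hspa5) rose from 1498 and 1367 to 2553 and 2502 CPM. All 6 genes of the metallothionein and zinc list were called higher, with the zinc exporter Slc30a1 and the metallothionein Mt2 at the top (log2 1.67 and 1.29). Of the 20 genes tested in the list of polyubiquitin and proteasome genes, 1 was called higher, by at least 2-fold. The subunits Psmb5 and Psmb6 were called lower (log2 -0.23 and -0.20). Both calls were lost without control replicate 2 (log2 -0.21 and -0.20) or H2O2 replicate 2 (log2 -0.19 and -0.21), and that of Psmb6 without control replicate 1 (log2 -0.20) as well.

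The targets of p53 were divided. Of 25 tested, 15 were called higher and 3 lower, with 8 at least 2-fold higher (median log2 0.57). The kinase Plk2 rose most among the abundant ones, from 188 and 207 to 1688 and 1801 CPM (log2 3.14 ± 0.09). Mdm2, the ligase that degrades p53, went from 77.7 and 76.2 to 261 and 260.2 CPM, and the cyclin kinase inhibitor Cdkn1a (p21) from 31.4 and 33.5 to 105 and 104 CPM. Pmaip1 (NOXA), which opposes the survival protein MCL1, rose from 12.97 and 13.5 to 70.5 and 73.0 CPM. Other well-known targets were not called, such as Ccng1 (log2 0.09), and Bax, Phlda3 and Sesn1 were called lower (log2 -0.22, -0.63 and -0.65). The call of Bax was lost without control replicate 2 (log2 -0.16) or H2O2 replicate 2 (log2 -0.19). In the BCL2 family, 6 of 16 members were called higher and 7 lower. Hrk and Pmaip1, both pro-apoptotic, had the largest rises and Bmf, also pro-apoptotic, the largest fall. Hrk remained under 1 CPM in both H2O2 libraries (0.634 and 0.443) and was lower still in the control. The filter admits such genes mostly through libraries in which they are higher, so the rank of Hrk is not read as a result. The survival gene Mcl1 rose from 172 and 176 to 274 and 266 CPM.

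The list of FOXO targets held Bmf and Txnip as well, and had 5 of 19 members called higher and 7 lower. Besides Bmf and Txnip, Pik3ip1, an inhibitor of PI3 kinase, fell by log2 1.47 and Ccng2, a cyclin of arrested cells, by 1.24, and the cell cycle inhibitor Cdkn1b (p27) by 0.98. Cited2 and Irs2 rose (log2 1.41 and 1.00). Since the list was drawn up with results of these data known, its falls are a description and not a test of FOXO activity.

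Genes of cell division were mostly lower, by small amounts. Of 25 mitosis genes, 21 were called lower, none higher and none by 2-fold (median log2 -0.43). Plk1, the kinase of mitotic entry, fell from 130.4 and 133 to 70.2 and 67.3 CPM and Aurka from 116 and 110.0 to 67.3 and 65.1 CPM, while Mki67 was not called (log2 -0.09). Replication genes were mixed, with 4 of 25 called higher and 9 lower. Mcm10 and the licensing factor Cdt1 rose (log2 0.85 and 0.54), and Gins2 and Ccne1 fell (log2 -0.41 and -0.37). Of 26 histone genes tested, 9 were called lower and Hist2h2be alone higher (log2 1.19). Replication-dependent histone mRNAs lack a polyA tail and nearly identical copies share reads, so these values rest on few counts, with the exception of Hist1h2ap (54.4 and 52.4 to 15.3 and 10.1 CPM).

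A large family with many falling genes was that of numbered zinc finger proteins (Zfp followed by a number), most of which are repressors of transcription. Of 332 tested, 177 were called lower, 69 of them at least 2-fold, and 58 higher, with a median log2 change of -0.40. Zfp273 and Zfp763 fell furthest (log2 -3.21 and -3.06), Zfp763 from 5.54 and 4.95 to 0.634 and 0.621 CPM. Zfp655 rose from 48.5 and 45.5 to 127 and 133 CPM, and Zfp36, which has a number by name but binds RNA, is among the rises. Mitochondrial ribosomal protein genes were lower in 34 of 78 and higher in 2, none by 2-fold, and cytosolic ones lower in 9 of 76 and higher in 1.

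The 13 mRNAs of the mitochondrial genome were all lower in each H2O2 library than in either control library, and 12 were called lower (median log2 -0.46). Over all genes tested the groups did not overlap, in either direction, in 78.1%, and 26.5% were called lower. COX1, a core subunit of cytochrome oxidase, fell from 7100 and 5924 to 4203 and 4292 CPM (log2 -0.62 ± 0.08), and ND5, of complex I, from 1265 and 1242 to 674 and 699 CPM. ND6, the member encoded on the other strand, was the one that fell at least 2-fold (log2 -1.10 ± 0.22), and ATP8 was not called (log2 -0.37, adjusted p = 0.0744), though it was in 5 of the 10 fits that left out 1 library each. The control libraries themselves differed in these abundant mRNAs, as the COX1 values show.

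Among metabolic lists, sterol and fatty acid synthesis genes were mostly lower: 13 of 21 were called lower and 2 higher, none by 2-fold. Hmgcs1, which makes the precursor of mevalonate, fell from 541 and 519 to 294 and 280.0 CPM and Fasn, fatty acid synthase, from 620.2 and 652 to 405 and 403 CPM. Of 16 HIF targets, 10 were called higher and 2 lower, led by Ndrg1 (133 and 126 to 487 and 485 CPM) and hexokinase 2 (Hk2, 51.5 and 60.2 to 158 and 165 CPM). Pgk1, a glycolytic target of the same factor, was not called (log2 -0.00). The clock list was mixed, with 10 of 19 called higher and 5 lower. Bhlhe40, a repressor of the clock, rose from 110.2 and 106 to 469.7 and 464 CPM, and the output factor Dbp fell from 6.18 and 6.26 to 2.82 and 2.93 CPM.

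Feedback genes of the TGF-beta and BMP pathways were higher in 11 of 16 and lower in 3. Smad7 and Skil, inhibitors of TGF-beta signalling, rose by log2 1.81 and 1.75, and Smad6, the BMP inhibitor, fell by log2 1.33. The actin genes controlled by SRF were nearly level, with 5 of 18 higher, 2 lower and Fhl2 as the one 2-fold rise (log2 1.10), although Egr2 and other immediate early targets of SRF rose. In the collagen and matrix list 7 of 25 were higher, and Mmp13 was the largest change (log2 2.13). Col1a1 was the member called lower, at the edge of the threshold (log2 -0.16, adjusted p = 0.0485), and lost its call without control replicate 2, H2O2 replicate 1, H2O2 replicate 2 or H2O2 7 h replicate 2 (log2 -0.11, -0.20, -0.18 and -0.16) with the replicate number as a block (log2 -0.16), with only the 4 libraries compared (log2 -0.15) and on the log2(TPM + 1) scale (log2 -0.16). Splicing kinases and SR proteins were higher in 9 of 21, none by 2-fold, led by Srsf11 and Tra2a (log2 0.66 and 0.64). Clk2 and Cirbp were the members called lower (log2 -0.51 and -0.44). Autophagy and lysosome genes were higher in 8 of 20 and lower in 4, with the cargo receptor Sqstm1 at the top (442 and 420.3 to 905 and 783 CPM) and Tfeb at the bottom (log2 -0.70). Among DNA repair genes 3 of 22 were higher and 8 lower, with Chek1 highest (log2 0.41) and Neil1, a glycosylase for oxidised bases, lowest (log2 -0.62). Of 12 noncoding RNAs listed and tested, 8 were called higher, led by the snoRNA hosts Snhg15 and Snhg1 (log2 1.94 and 1.49), and the paraspeckle RNA Neat1 was called lower (log2 -0.52), a call lost without control replicate 2 (log2 -0.44) or H2O2 replicate 2 (log2 -0.38) and with DESeq2 (log2 -0.52).

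The title of the study concerns transcription that runs past the end of a gene into its neighbour. For 6399 pairs of neighbouring genes the authors deposited calls of downstream-of-gene transcripts (DoGs) and of read-in, in which such a transcript reaches the next gene. DoGs were called in 1551 and 1615 pairs in the control libraries and in 2202 and 2286 after H2O2, and read-in in 36 and 35 pairs against 161 and 156. The H2O2 libraries were higher in both counts, although shallower. With 2 libraries against 2 an exact two-sided permutation test cannot go under p = 0.333, so these counts carry no test. In 157 pairs read-in was called in at least 1 H2O2 library and in no control library. Of their downstream genes 156 were tested, and at all control levels together 76 (48.7%) were called higher, 39 of them at least 2-fold (25%), against 30.1% and 13.8% of the 5105 downstream genes tested over all pairs. Both sets hold genes under 1 CPM in the control, which the filter admits mostly where stress raised them. Nothing is therefore read from the difference between these shares. The formula behind the authors' calls is not stated, and a rise of the downstream gene may itself help a pair to be called.

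The downstream genes named here were taken from those with the largest rise among called genes whose average log2 CPM was 1 or more. Nearly silent in the control, they could pass the filter and that average only through stressed libraries in which they were higher. Their low start and their rank are therefore not read as a result. A3galt2, a glycosyltransferase gene that lies 6.38 kb past Phc2, went from 0.0620 and 0.0786 to 18.8 and 17.2 CPM while Phc2 stayed at 120 to 137 CPM in all 4 libraries. Read-in was called for this pair in 1 of the 2 H2O2 libraries. Tbxa2r, the thromboxane receptor, lies 2.02 kb past Cactin and went from 0 and 0.183 to 6.88 and 6.62 CPM, while Cactin fell by log2 0.31, a call lost without control replicate 2 (log2 -0.20). Over the 76 genes called higher, the upstream gene was itself higher in 21 and lower in 22 of the 74 that were tested. Pairs with read-in called in both H2O2 libraries and no control library lay close together, with a median gap of 1.94 kb (82 pairs with RefSeq positions) against 38.1 kb over all 5879. Read-in means that a transcript reaches the next gene, so a short gap may be built into the calls. Nothing is read from this difference.

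The DoG calls were read by the level of the downstream gene. At 1 to 10 CPM in the control, 40 downstream genes had an upstream neighbour with a DoG called in both H2O2 libraries and in neither control library. Of these, 12 (30.0%) rose at least 2-fold, against 28 (9.09%) of 308 where no DoG was called in any of the 4 libraries. Over 10 CPM the shares were nearly equal, 2.38% of 210 and 2.42% of 1321. Under 1 CPM they were 81.4% of 59 and 51.8% of 332, from which nothing is read because the filter admits such genes mostly where stress raised them. The groups differed in distance too: over all levels the median gap was 20.1 kb with such a DoG and 42.2 kb with none. Whether a rise of the downstream gene helped a DoG to be called was not tested. Counts without strand cannot separate a downstream gene's own transcript from RNA running in from its neighbour, and the sources used here do not say whether strand was used.

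**Figure D4:**
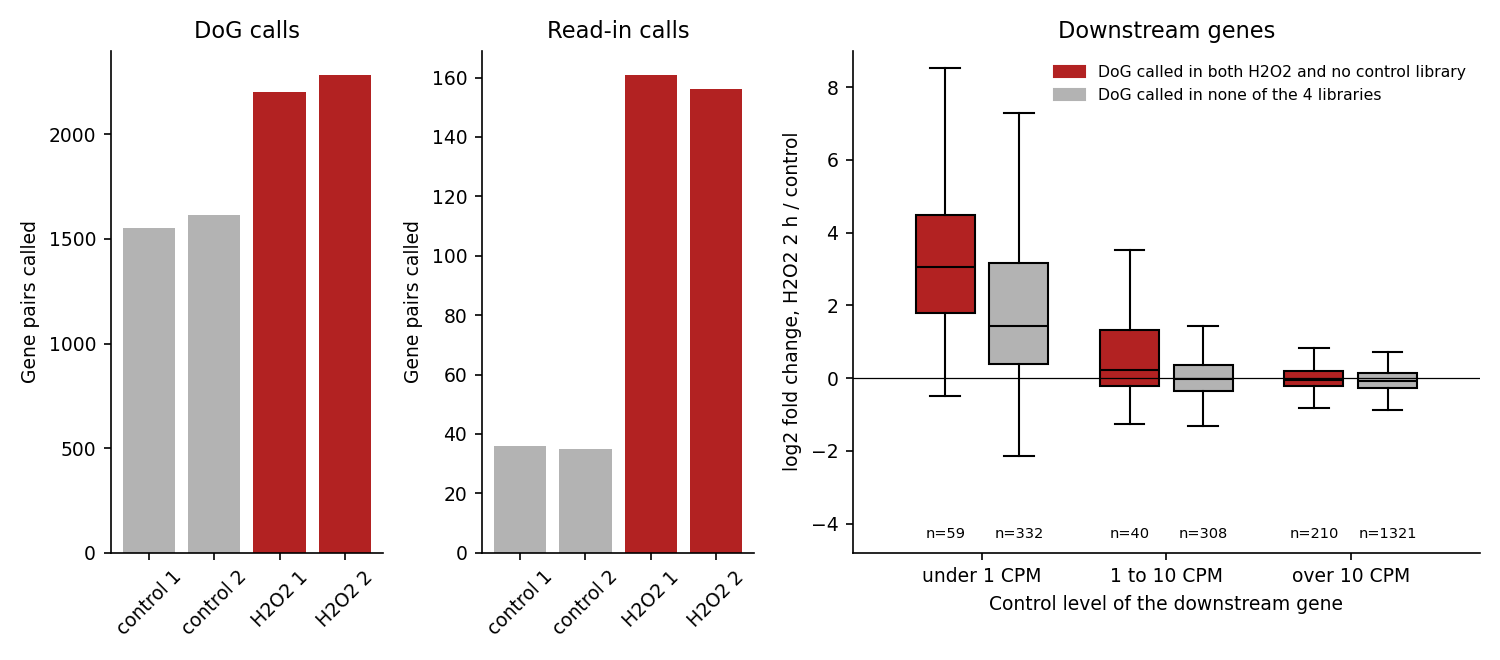
Left, number of gene pairs with a DoG call and with a read-in call in each control and H2O2 library (bars from 0). Right, log2 fold change of downstream genes at 2 h of H2O2, by control level and by whether the upstream neighbour had a DoG called in both H2O2 and no control library or in none of the 4 libraries. Boxes span the quartiles with the median, whiskers reach 1.5 times the box or the last gene within it, and over 10 CPM both boxes lie near 0. Genes under 1 CPM passed the filter mostly through libraries in which they were higher, which sets the height of both boxes there.

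Among the tested genes were 792 with a control mean of at most 0.1 CPM, which the filter on low counts admits only through libraries where they are higher, so how many of them rose is not a result. They include tissue-restricted genes such as Myo15 (0.0207 and 0.0786 to 13.8 and 14.4 CPM) and Slc8a2 (0 and 0.0524 to 9.17 and 10.7 CPM), named after their values were seen. Csf2, a cytokine that fibroblasts can make, is another (0.0414 and 0 to 3.90 and 5.38 CPM). Some markers of other cell types are of this kind. Of 19 listed for epithelial, blood, endothelial, fat, muscle, neural and pluripotent cells, 12 passed the filter. Their summed level went from 28.0 and 25.7 CPM to 49.9 and 49.99 CPM, which remained low next to a single fibroblast gene such as Vim. Adipoq stood at 0 CPM in both control libraries and at 0.381 and 0.887 CPM after H2O2. Pecam1 went from 0.103 and 0.0262 to 2.35 and 3.10 CPM. Cd68, which was not silent in the control, went from 5.25 and 5.08 to 15.3 and 14.1 CPM. It lies 0.765 kb past Eif4a1, and read-in was called for this pair in both H2O2 libraries and in neither control library. Of 9 fibroblast markers tested, 2 were called higher and 4 lower, none by 2-fold. Defining markers such as Ptprc, Myod1 and Pou5f1 did not pass the filter. The part of other cells in these values was not tested.

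Ribosome footprints of the same treatment, from separate libraries, gave another readout. The footprint libraries were far shallower, 1460751 and 5168537 counts after H2O2 and 3925402 and 3603755 in the control, and 120 of 10545 genes (1.14%) were called higher and 81 (0.768%) lower. Of 411 genes at least 2-fold higher in RNA and present in both fits, 77 (18.7%) were called higher in footprints and 1 lower, and these 77 make up 64.2% of the 120. Of the integrated stress response effectors, 10 of 16 were called higher in footprints, with a median log2 change of 2.03 against 1.24 in RNA. Atf4 footprints changed by log2 2.44 and those of Ddit3 by 2.46. Fosb, Egr1 and Zfp36 footprints rose by log2 3.87, 3.31 and 3.44. For other genes the RNA change was not matched. Lif rose by log2 1.72 in footprints against 5.98 in RNA, and for Txnrd1 the footprint change was 0.14 (adjusted p = 0.809). Differences between the readouts were not tested here. The footprint count rested on single libraries: it was 201 in full, 62 in a fit without control replicate 1, 37 without control replicate 2 and 125 without H2O2 replicate 1.

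Set against that control, H2O2 for 7 h had 70.5% of genes called and KCl for 2 h had 54.2%. Direct contrasts in the same fit set 2 h of H2O2 against KCl at the same time and against 7 h of H2O2. Against KCl, 3582 of the 13256 genes (27.0%) were higher in H2O2 and 3212 (24.2%) lower. By list, 13 of 16 integrated stress response effectors were higher in H2O2 and 2 lower, as were 23 and 3 of 28 NF-kB genes and 20 and 3 of 26 immediate early genes. Of the HSF1 chaperones none was higher and 12 of 15 were lower in H2O2, and of the mitosis genes none was higher and 20 of 25 lower. Lif, at 985 and 953 CPM in H2O2, stood at 19.9 and 15.7 CPM in KCl, and the difference was log2 5.77 (adjusted p = 5.07e-12). Hmox1 stood at 132 and 122 CPM in KCl (difference log2 2.83) and Sesn2 at 11.2 and 10.4 CPM (difference log2 4.07). Ptgs2 did not pass that test: it stood at 1594 and 1958 CPM in KCl, with a difference of log2 0.10 ± 0.11. Numbered zinc finger genes were higher in H2O2 than in KCl in 205 of 332, so their level was lower still in KCl. Read-in was called in 174 and 189 pairs in the KCl libraries, next to 161 and 156 in H2O2.

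Between 2 h and 7 h of H2O2, 4946 genes (37.3%) were higher at 7 h and 4784 (36.1%) lower. The signalling genes had receded: 21 of 26 immediate early genes, 20 of 28 NF-kB genes and 21 of 29 growth factor and cytokine symbols were lower at 7 h. Tnfaip3 stood at 43.1 and 54.2 CPM at 7 h and Zfp36 at 23.6 and 27.3 CPM. By contrast 22 of 25 p53 targets and all 10 genes of the thioredoxin and quinone list were higher at 7 h. Cdkn1a reached 1397 and 1429 CPM (log2 3.76 over 2 h) and Nqo1 219.5 and 189.8 CPM (log2 1.98), so that Nqo1, which did not pass the test at 2 h, was well above it later. Slc7a11 was already at its later level: 144 and 159 CPM at 7 h against 132 and 146 CPM at 2 h (difference log2 0.12 ± 0.10, adjusted p = 0.265). Read-in was called in 37 and 36 pairs and DoGs in 1243 and 1359.

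**Figure D5:**
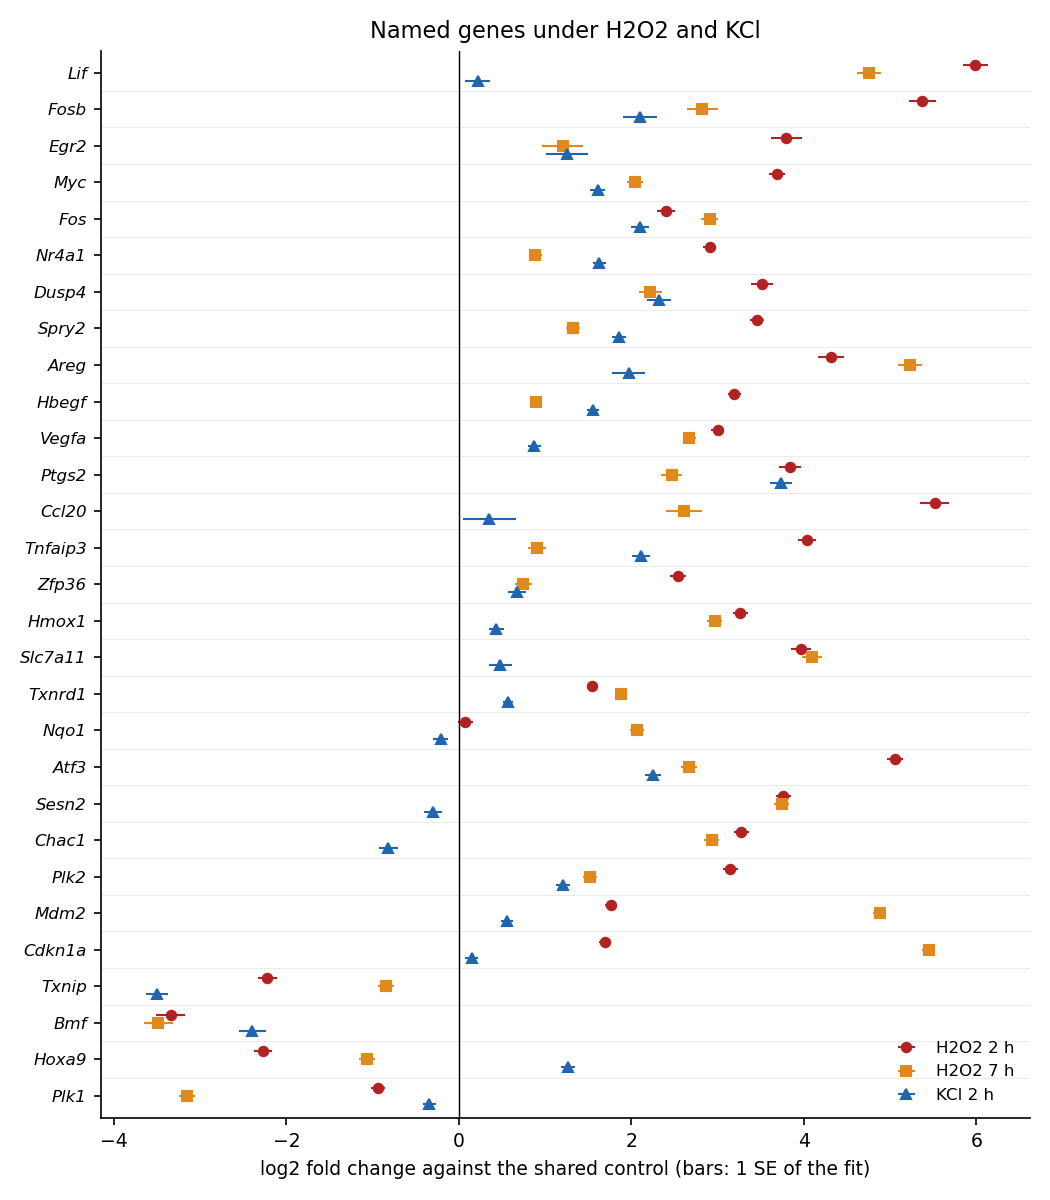
Fitted log2 fold change against the shared control for 29 named genes (rows) at H2O2 2 h (red circles), H2O2 7 h (orange squares) and KCl 2 h (blue triangles), with bars of 1 SE. The 3 comparisons share the control libraries, so they are not independent of each other; Lif, Sesn2 and Hmox1 lie far to the right in H2O2 but not in KCl, and Cdkn1a and Nqo1 lie further right at 7 h than at 2 h.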

How the data were processed

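Expression came from the authors' deposited tables of expected counts and of TPM for RNA, and of expected counts for ribosome footprints, 1 column per library. Per the submitters' processing notes, STAR, RSEM and Bowtie and the build mm10 were used, without stated roles or versions. The authors also deposited true or false calls of DoG and read-in and a read-in ratio per pair of genes, with no formula stated. The tables' 12 other columns match no sample analysed here and were not used.

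The expected counts, whole numbers as deposited, were tested with edgeR 4.0.16 (R 4.3.3): filterByExpr, TMM, quasi-likelihood F test, Benjamini-Hochberg adjustment over all genes tested and calls at 0.05. The model had 1 term per group over 10 RNA libraries (5 groups of 2). In simulated counts for this comparison (13256 genes, 200 changed) it recovered 82% of changes of log2 size 1 and 97% of size 2, and 7.73% of its calls were false. Footprints were fitted alike. Alternatives used DESeq2 1.42.0, limma 3.58.1 on log2(TPM + 1), other normalization, filters and samples, and second symbols (101 rows) summed, the last chosen after seeing the data. Genes read as copies, overlapping or antisense neighbours can share counts, and whether strand was used is not stated.

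Named are the 8 largest rises and falls among called genes of average log2 CPM at least 3 with separate libraries, in each list the members with the largest changes each way and those whose role is described, and the 3 largest called downstream genes of read-in pairs with average log2 CPM at least 1. Some genes that this rule names are not reported here. The members and lists were chosen with earlier results of these data known. Figures were drawn with matplotlib 3.10.9.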

Additional observations from a re-analysis of the deposited data

Results flagged for a closer look

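For 5 named genes the change against the control at 2 h of H2O2 and that at 7 h were both called, lay in opposite directions and were each at least 0.5 on the log2 scale, and the direct contrast of the durations was called too (edgeR's quasi-likelihood test). Higher at 2 h of H2O2 were Bach1 (log2 0.59), Bhlhe40 (log2 2.11) and Dusp1 (log2 0.57). Their log2 changes at 7 h were, in the same order, -0.75, -0.73 and -0.58, and the log2 differences of 7 h against 2 h were -1.35, -2.84 and -1.15. Lower at 2 h of H2O2 were Dusp7 (log2 -0.87) and Phlda3 (log2 -0.63). Their log2 changes at 7 h were, in the same order, 0.73 and 2.63, and the log2 differences of 7 h against 2 h were 1.60 and 3.26.

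By the same rule 10 named genes moved in opposite directions under H2O2 and KCl at 2 h. Higher at 2 h of H2O2 were Chac1 (log2 3.27), Mt2 (log2 1.29), Slc30a1 (log2 1.67), Srxn1 (log2 1.71) and Trib3 (log2 2.49). Their log2 changes under KCl were, in the same order, -0.82, -0.64, -1.16, -0.53 and -0.75, and the log2 differences of H2O2 against KCl were 4.09, 1.93, 2.83, 2.24 and 3.23. Lower at 2 h of H2O2 were Cdkn1b (log2 -0.98), Hoxa9 (log2 -2.27), ND6 (log2 -1.10), Sesn1 (log2 -0.65) and Skida1 (log2 -2.17). Their log2 changes under KCl were, in the same order, 0.83, 1.27, 1.20, 1.47 and 0.59, and the log2 differences of H2O2 against KCl were -1.81, -3.54, -2.30, -2.12 and -2.76. These 15 genes were found by looking over all named genes, and the comparisons share their control libraries. No group had enough libraries to look for one far from the others.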

How the results depend on the processing

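At 2 h of H2O2 7140 genes were called, and separate fits under the alternatives called between 6387 (DESeq2) and 7701 (no filter) in all, or 5535 to 7724 when 1 library was left out (2866 to 3912 higher, 2630 to 4270 lower). The genes at least 2-fold changed numbered 1763, and 795 on the log2(TPM + 1) scale (625 higher, 170 lower), where unit, pseudocount and test all differ and the cause was not tested. Leaving out libraries gave 1667 to 1900 (1369 to 1580 higher, 290 to 389 lower). Leaving out libraries gave 5539 to 6357 calls against KCl (3013 to 3235 higher, 2512 to 3122 lower), 8694 to 9152 at 7 h against 2 h (4371 to 4652 higher, 4302 to 4585 lower), and 21 to 23 lists with a median above 0 (23 of 39 in full). Footprint calls, 201 in full, ranged from 37 to 145 when a library was left out (29 to 91 higher, 8 to 55 lower) and reached 315 without a filter (150 lower), and the cause was not tested. Requiring read-in in both H2O2 libraries left 90 pairs of 157 and 48 downstream genes called higher of 76.

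No value of a named gene changed sign with a call. The replicate numbers did not pair the samples (correlations of deviations -0.053 to 0.054), and the fit with a replicate block called 7301 genes, lost the call of Col1a1 and gained that of Cat. Calls of 10 other named genes were lost by leaving out a library, and that of Tent4b with DESeq2. Of 663 medians of the 39 lists under these alternatives, 96 moved by more than the spread between replicates, and no median over 0.1 in size changed sign.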

Other observations

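Besides Hoxa9 and Hoxa10, many developmental transcription factors of the Hox clusters, which specify position along the body, were lower after H2O2. The group was picked after its values were seen, so it carries no test. Of 19 Hox genes tested, 14 were called lower and 8 of these at least 2-fold, against 26.5% and 2.32% of all genes tested. Hoxd8 alone was called higher (log2 0.54), and the median log2 change was -0.998. Hoxa3, Hoxa11 and Hoxa5 changed by log2 -1.98, -1.36 and -0.998, Hoxd10 and Hoxd11 by log2 -0.88 and -0.92, and Hoxd13 by log2 -0.45. Set against KCl at 2 h in the same fit, 12 of the 19 were called lower in H2O2, as were 24.2% of all genes tested.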
